A study of Homo sapiens with 6 samples.

Results

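The genes described here are the mRNAs of the ATF4 amino acid response together with the cytosolic aminoacyl-tRNA synthetases, in MDA-MB-231 cells. They were chosen by name from a list of 39 symbols, and 38 of them had a row in the deposited table of 16258 genes; VARS is not analysed here. MDA-MB-231 is an established human line of triple-negative breast cancer, and its cells migrate readily in culture. Cells grown in DMEM with heat-inactivated serum were seeded in microfluidic devices. Highly motile cells collected from the devices formed the migratory group (n = 3), and the unsorted population formed the control group (n = 3). Each sample held 1000 cells, and no allele or drug distinguished the groups. All samples came from a single line, and bulk RNA cannot tell fewer cells with a transcript from less of it per cell. Whether the 3 samples of a group were grown as separate cultures is not stated, so the p-values rest on a spread that may be technical. The time that unsorted cells spent in a device is not stated either, so its effect cannot be told apart from that of the group.

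ATF4 is a transcription factor made when kinases that sense missing amino acids, unfolded proteins, haem or viral RNA phosphorylate the initiation factor eIF2 alpha. Short upstream reading frames then let ribosomes reach the ATF4 coding sequence, so much of its control is by translation and an mRNA level does not report the protein. ATF4 pairs with C/EBP family proteins at C/EBP-ATF response elements and raises genes for amino acid import, serine and asparagine synthesis, one-carbon metabolism and tRNA charging. Aminoacyl-tRNA synthetases join each amino acid to its tRNA. In human cells several of them are held together in a multisynthetase complex, and others act outside it.

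The response element has the core TGATGNAA, which was searched on both strands of RefSeq promoter windows (build GRCh38.p14) that run from 250 bases before to 50 bases after each start. No other motif was searched. A window was given for 31 of the 38 genes (45 windows), and 10 of the 31 held the core in at least 1 window, or 32.3%. Among all 27305 genes with a window (35116 windows) the share was 4.46%, and among the 10267 of them matched to the deposited table it was 2.75%. The synthetases held 7 of these 10 genes, and the others were the transcription factor gene CEBPG, the glutathione-degrading enzyme gene CHAC1 and the asparagine synthetase gene ASNS. The sites are shown because the same genes return in the comparison below. Each is written 5′ to 3′ on the strand of its gene, with the core in capitals, which reads as its reverse complement where it lies on the opposite strand.

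ASNS (chr7:97872458-97872487, minus strand): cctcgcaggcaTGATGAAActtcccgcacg
CEBPG (chr19:33374060-33374089, plus strand): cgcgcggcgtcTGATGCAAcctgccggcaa
CHAC1 (chr15:40953251-40953280, plus strand): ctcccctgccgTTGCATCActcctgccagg
AARS (chr16:70289675-70289704, minus strand): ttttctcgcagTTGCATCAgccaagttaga
CARS (chr11:3057407-3057436, minus strand): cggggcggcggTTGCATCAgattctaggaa
GARS (chr7:30594834-30594863, plus strand): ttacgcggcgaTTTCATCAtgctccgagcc
IARS (chr9:92293692-92293721, minus strand): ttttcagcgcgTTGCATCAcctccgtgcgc
MARS (chr12:57488053-57488082, plus strand): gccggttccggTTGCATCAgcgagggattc
NARS (chr18:57621804-57621833, minus strand): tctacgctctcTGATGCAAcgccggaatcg
TARS (chr5:33440956-33440985, plus strand): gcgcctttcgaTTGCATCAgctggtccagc

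Counted from the start, with negative positions before it, the core lay at -68 to -61 in ASNS, a promoter known for a nutrient-sensing site, and at -209 to -202 in CHAC1. In the synthetase genes it lay nearer the start, from -33 to -26 in GARS to 15 to 22 in NARS, except in AARS, at -187 to -180. On the strand of the core, 8 of the 10 sites have the same letters, and ASNS and GARS share the other form. The 250 bases before the start of both metabolic genes show the surroundings of the site. A match is a description of letters and not evidence of binding.

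ASNS upstream (chr7:97872409-97872658, minus strand): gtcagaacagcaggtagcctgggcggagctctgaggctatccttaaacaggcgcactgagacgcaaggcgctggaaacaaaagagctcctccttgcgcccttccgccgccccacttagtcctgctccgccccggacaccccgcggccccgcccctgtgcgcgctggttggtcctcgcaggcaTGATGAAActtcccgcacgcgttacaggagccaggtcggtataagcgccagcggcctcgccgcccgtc
CHAC1 upstream (chr15:40953221-40953470, plus strand): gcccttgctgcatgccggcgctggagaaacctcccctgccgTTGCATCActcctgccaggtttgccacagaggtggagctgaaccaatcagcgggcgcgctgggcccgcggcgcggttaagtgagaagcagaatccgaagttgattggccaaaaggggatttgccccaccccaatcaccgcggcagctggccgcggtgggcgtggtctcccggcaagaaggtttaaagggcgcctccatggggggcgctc

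The 6 libraries held 27032454 to 74227978 reads, and the deepest was unsorted replicate 2. Migratory replicate 1 stood apart from the other migratory libraries on the second principal component, which held 22.5% of the variance. All 6 markers chosen for the line, VIM and CD44 among them, had a row, with summed levels of 164221 to 186220 (unsorted) and 211030 to 227318 (migratory) normalised counts. Summed marker levels of other cell types were lower in migratory libraries for fibroblast genes (5 of 8 with a row, 2772 to 4183 against 818 to 2111), endothelial genes (4 of 7, 1319 to 1880.5 against 640.2 to 987) and blood genes (2 of 7, 307 to 411 against 28.5 to 112). Keratinocyte genes (3 of 7) summed to 4327 to 5774 and to 3993 to 7033, and none of the 5 erythroid genes had a row. Of 5 genes not expected in the line, ESR1, PGR and FOXA1 had no row, and ERBB3 and GATA3 summed to 552 to 757 and to 406 to 619.7. Mitochondrial reads made up 1.37% to 2.17% of unsorted and 0.951% to 1.57% of migratory libraries. The part of these differences in the results below was not tested.

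The comparison asked how the amino acid response of highly motile cells differs from that of the whole population. Most of its genes had higher mean values in the migratory cells, with ratios of up to 2.15 for the serine synthesis gene PSAT1 and 2.01 for the tyrosyl-tRNA synthetase gene YARS. DDIT4 went the other way, with its migratory mean at 0.442 of the unsorted one. Of the 38 genes, 28 had a positive log2 difference, where 48.1% of all 15786 tested genes did. The lowest migratory value lay above the highest unsorted value for 19 of the 38, against a background of 11.3% of tested genes, and for none did all migratory values lie below all unsorted values (background 12.5%). The background share was larger among abundant genes: of all genes whose mean reached 1000, 17.4% were higher without overlap, and 17 of the 29 members at that level were. The median log2 difference was 0.48 over the members and -0.03 over all tested genes.

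No single member passed an adjusted p of 0.05 in limma, the test used throughout, where 0.234% of all genes passed. At an unadjusted limma p under 0.05 there were 18 higher members and 1 lower, with backgrounds of 7.70% and 10.0%. The quasi-likelihood test of edgeR called no member, against 0.0253% of all genes as higher and 0.108% as lower. At an unadjusted edgeR p under 0.05 it left 17 higher and 1 lower, and the share of all genes there was not computed. DESeq2 on whole reads called 8 members as higher and none as lower, against 2.31% and 3.60% of all genes. Those 8 were DDIT3, CEBPG, PSAT1, PSPH, SHMT2, MTHFD2, MARS and YARS. In simulated data with few changed genes, limma and edgeR missed most 2-fold differences, and 46 of 179 DESeq2 calls were false. These rates depend on the simulated setting and need not hold for the members. The 18 higher members at an unadjusted limma p under 0.05 became 12 without unsorted replicate 3 or migratory replicate 3, and 13 without unsorted replicate 1. The share of all genes in these fits was not computed either.

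**Figure D1:**
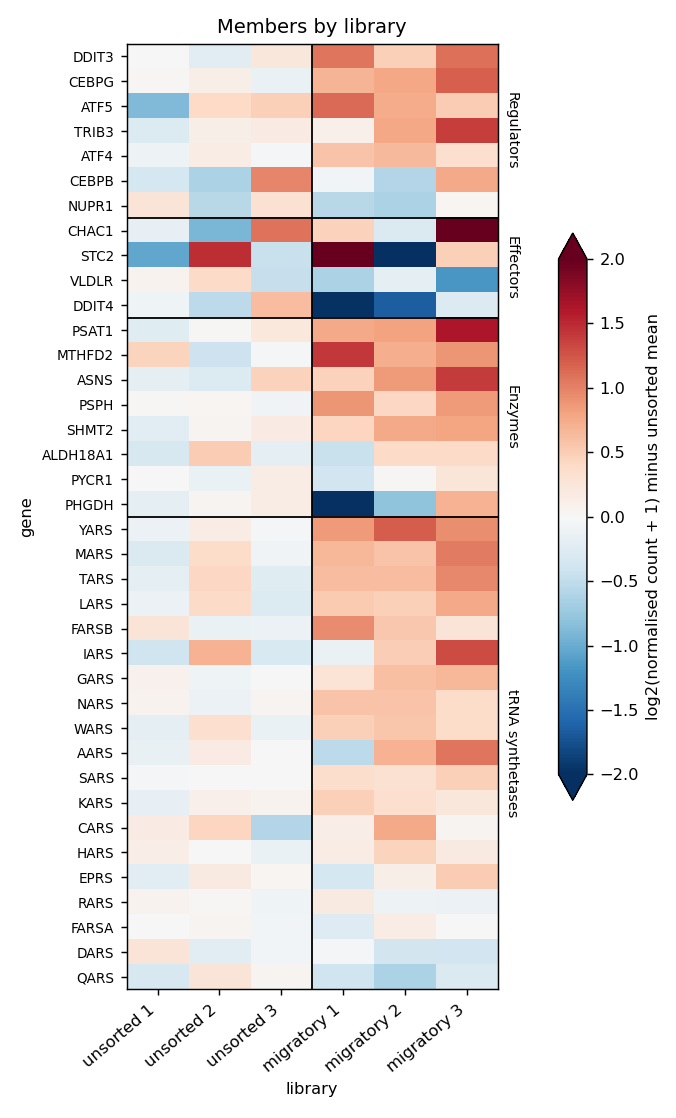
Log2(normalised count + 1) of each of the 38 genes (rows, by role) in each of the 6 libraries (columns), less the mean of the 3 unsorted libraries; the colour scale ends at ±2 and larger deviations are drawn at its end. Red dominates the migratory columns for most regulators, enzymes and synthetases, 17 of the 38 genes are highest in migratory replicate 3, and DDIT4 and VLDLR are blue there.

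Among the transcription factors and their regulators, ATF4, DDIT3, CEBPG and, only just, ATF5 were higher without overlap, 4 of 7 genes (11.3% of all tested genes). ATF4, DDIT3, CEBPG and TRIB3 were higher at an unadjusted limma p under 0.05, and the median of the 7 was 0.75, or 0.46 without unsorted replicate 1. ATF4 itself (chromosome 22, 39519695 to 39522685, GRCh38) was at 5090.3, 6068 and 5349.5 normalised read counts in unsorted replicates 1 to 3 and at 8121, 8624 and 6933 in migratory replicates 1 to 3. The lowest migratory value lay above the highest unsorted one, and the log2 difference was 0.52 (SE 0.17), for which limma gave an adjusted p of 0.18. DDIT3, which encodes CHOP, a factor induced by ATF4 under stress, was at 1059.6, 898 and 1225 in unsorted and at 2203, 1468 and 2261 in migratory libraries. Its groups did not overlap either, and the 1.86-fold ratio of means had a limma adjusted p of 0.13 (0.016 to 0.32 over the alternatives).

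CEBPG, a C/EBP protein that partners ATF4, was at 1599.7, 1696 and 1431 in unsorted and at 2522, 2673 and 3603 in migratory libraries, with migratory replicate 3 highest. Its log2 difference was 0.88 (SE 0.21), with a limma adjusted p of 0.10 (0.0042 to 0.35 over the alternatives). TRIB3, a pseudokinase induced by ATF4 and CHOP that feeds back on the pathway, was at 1701, 2239 and 2305 in unsorted and at 2207, 3521 and 5393 in migratory libraries. Migratory replicate 1 lay within the unsorted range and replicate 3 at 2.59 times the unsorted mean, so the groups overlapped, and the log2 difference of 0.75 (SE 0.31) was 0.43 without migratory replicate 3 and 1.08 without migratory replicate 1. ATF5, a related factor under similar translational control, was scarce at 39.7 ± 17.6 and 65.1 ± 14.8 (mean ± SD, n = 3), with a limma adjusted p of 0.46. Its groups did not overlap, but unsorted replicate 3 at 51.37 and migratory replicate 3 at 52.45 were nearly equal. In the latter library 1 read is 1.14 normalised counts, so this gap is within counting error.

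CEBPB and NUPR1 did not share this pattern. CEBPB, another partner of ATF4, was at 633, 523 and 1592 in unsorted and at 779.5, 535 and 1361 in migratory libraries, so replicate 3 was highest in both groups and the log2 difference was 0.04 (SE 0.46). It ranged from -0.32 to 0.53 as single libraries were left out. NUPR1, a small stress-induced nuclear protein, was at 265 ± 79.2 and 201 ± 55.2, with overlapping groups.

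**Figure D2:**
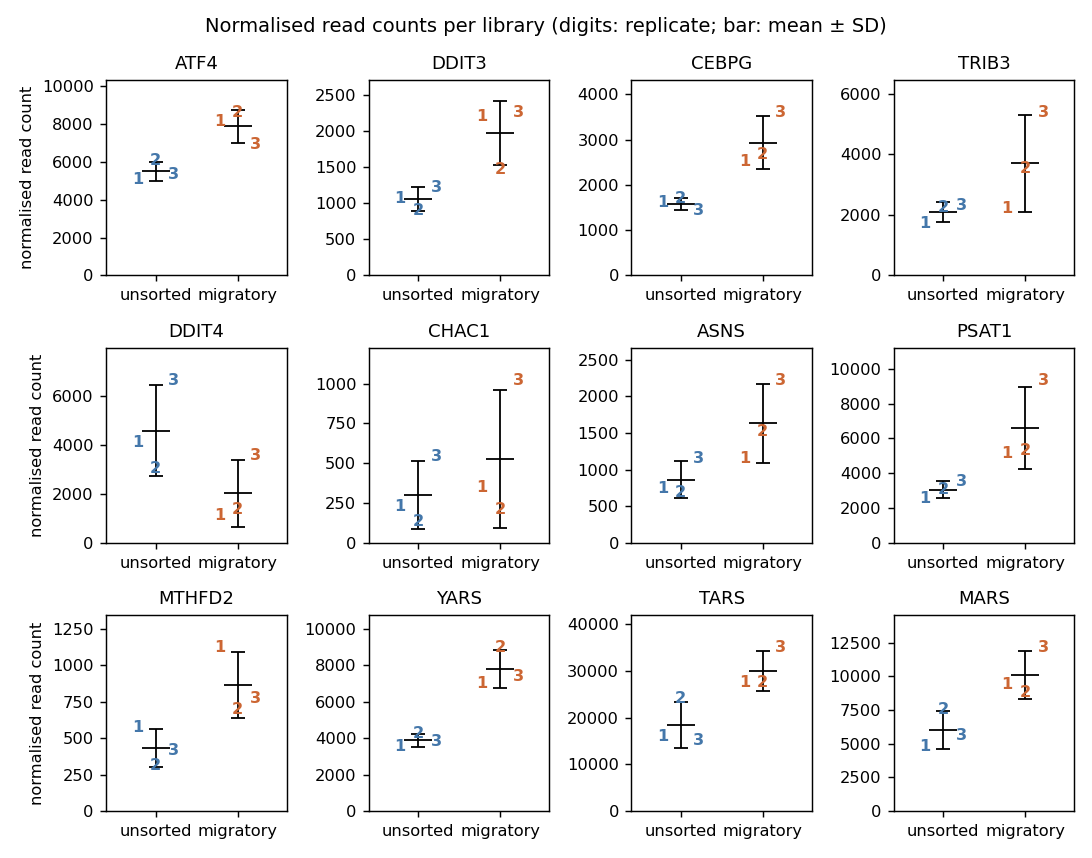
Normalised read counts (vertical axes, each from 0) of 12 of the genes in unsorted and migratory libraries; digits give the replicate, and the bars give the mean ± SD of 3 libraries. ATF4, DDIT3, CEBPG, PSAT1, MTHFD2, YARS, TARS and MARS separate completely, and ASNS only just does. TRIB3 and CHAC1 overlap, and DDIT4 is lower in migratory cells with its range overlapping. DDIT3, CEBPG, TRIB3, CHAC1, ASNS, PSAT1, TARS and MARS are highest in migratory replicate 3.

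The stress effectors and surface or secreted targets had 1 positive and 3 negative differences among 4 genes on the log2(value + 1) scale. DDIT4, an inhibitor of mTORC1 signalling that also responds to hypoxia and glucocorticoids, was at 4091, 3030.3 and 6656 in unsorted and at 1111, 1391 and 3588 in migratory libraries. Replicate 3 was the highest of each group and the groups overlapped. The log2 difference was -1.30 (SE 0.43, limma adjusted p of 0.18), and DDIT4 was the 1 member that was lower at an unadjusted limma p under 0.05, which it missed without migratory replicate 1. CHAC1, which breaks down glutathione, was at 229.5, 135 and 542 in unsorted and at 352, 209 and 1022 in migratory libraries. Its higher mean rested on migratory replicate 3, which stood at 3.38 times the unsorted mean, and the log2 difference of 0.72 (SE 0.62) was 0.08 without that library. VLDLR, a lipoprotein receptor, was at 419 ± 119 and 266 ± 86.9, and limma gave it an adjusted p of 0.35. STC2, a secreted glycoprotein, was near the limit of detection, with 0 reads in migratory replicate 2 (a floor of 3 reads there is 4.29 normalised counts) and at most 49.3 elsewhere. Its direction depended on the scale, with a log2 difference of -0.30 in limma, 0.54 in edgeR and 0.58 in DESeq2. The median over these 4 genes was -0.48 in limma, -0.07 in edgeR and -0.04 in DESeq2. In limma it was -0.72 and -0.11 without unsorted replicates 1 and 2, and -0.82 and 0.16 without migratory replicates 1 and 2.

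Of the enzymes, those of asparagine, serine and one-carbon metabolism had higher means in migratory cells, except PHGDH, and the proline enzymes had ratios of 1.08 and 0.987. PSAT1, the aminotransferase of serine synthesis (chromosome 9, 78297143 to 78330093), was at 2571, 3091 and 3533 in unsorted and at 5162, 5292 and 9346 in migratory libraries. Every migratory value exceeded every unsorted one, and the 2.15-fold ratio of means had a log2 difference of 1.06 (SE 0.26) and a limma adjusted p of 0.10 (0.0046 to 0.31 over the alternatives). PSPH, the phosphatase that completes serine synthesis, was at 1235, 1253 and 1160.4 in unsorted and at 2247, 1619 and 2194 in migratory libraries. Its unsorted values lay within a coefficient of variation of 4.05%, and its limma adjusted p was 0.15. PHGDH, the enzyme that opens the same pathway, went its own way, at 124, 148 and 158 in unsorted and at 6.17, 81.6 and 231 in migratory libraries. Its migratory values spanned both sides of the unsorted range, and the limma log2 difference of -1.48 (SE 1.02) was -0.05 without migratory replicate 1. In edgeR and DESeq2 the log2 difference was -0.44 and -0.43. Per kilobase of exon PHGDH was at 15.6 ± 1.88 normalised counts in unsorted cells, beside 1401 ± 219.9 for PSAT1 and 440.4 ± 17.9 for PSPH.

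SHMT2, which turns serine into glycine in mitochondria and feeds one-carbon units to folate, was at 2756, 3345 and 3593 in unsorted and at 4306, 5403 and 5554 in migratory libraries. MTHFD2, the next mitochondrial folate enzyme, was at 573, 314 and 413 in unsorted and at 1120.0, 694 and 772 in migratory libraries. The groups of both genes stood apart, with log2 differences of 0.65 (SE 0.20) and 1.00 (SE 0.31) and a limma adjusted p of 0.15 for each. ASNS, which makes asparagine from aspartate, was at 742, 693 and 1151 in unsorted and at 1153, 1516 and 2219.9 in migratory libraries. Its groups only just failed to meet, since unsorted replicate 3 and migratory replicate 1 were nearly equal, and the limma adjusted p was 0.18. ALDH18A1 and PYCR1, which make proline from glutamate, were at 4061 ± 1342 and 4142 ± 409.8 in unsorted and at 4371 ± 1295 and 4089.5 ± 874 in migratory cells. In all, 5 of 8 enzymes were higher without overlap, against 11.3% of all tested genes, and the group median was 0.69.

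**Figure D3:**
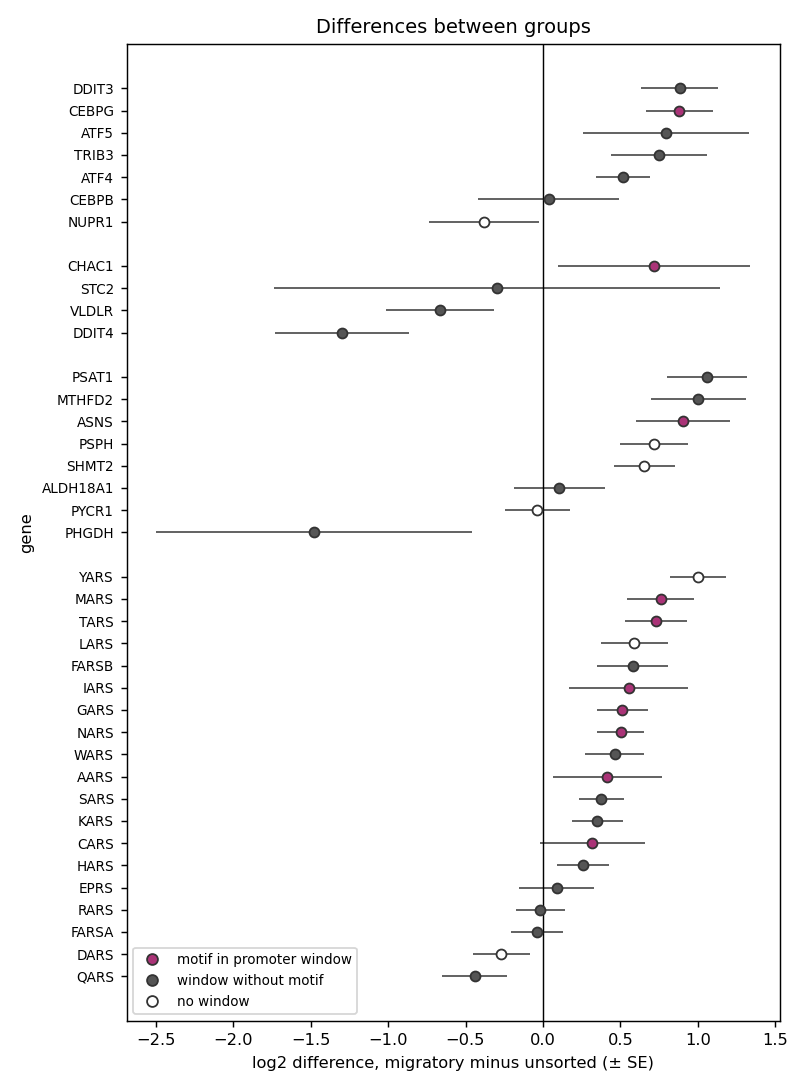
Log2 difference, migratory minus unsorted, of each gene with its SE from limma (horizontal bars), ordered by role; filled purple points have the response element core in a promoter window, grey points have a window without it, and open points have no window. All 10 purple points lie between 0.32 and 0.90, and PSAT1, MTHFD2 and YARS lie at or above 1.00.

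The cytosolic synthetases did not all move alike. A list of those often given as ATF4 targets had 12 members. It was drawn from general knowledge with earlier results of these data known, and its split from the rest may reflect that choice. All 12 had positive log2 differences, from 0.09 (EPRS) to 1.00 (YARS). Of these, 8 were higher without overlap (background 11.3%), and the median was 0.51. The other 7 measured synthetases had 3 positive and 4 negative values, with a median of -0.02, and 2 of them, HARS and KARS, were higher without overlap. No test was made of the difference between the lists, and leaving out each library in turn gave medians of 0.43 to 0.63 and of -0.06 to 0.07.

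YARS, the tyrosyl-tRNA synthetase (chromosome 1, 32775237 to 32818153), had the smallest p of all members and ranked number 70 among all tested genes. It was at 3569, 4275 and 3796 in unsorted and at 7007, 8966 and 7387 in migratory libraries. No library of either group came near the other group, and the ratio of means was 2.01. The limma adjusted p was 0.061, just above the threshold, the edgeR adjusted p was 0.072 and the DESeq2 adjusted p was 7.1e-05. With genes of a mean under 50 left out, the limma adjusted p was 0.045, and over all alternatives the range was 7.1e-05 to 0.27.

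TARS, the threonyl-tRNA synthetase, was at 15888, 24023 and 15175 in unsorted and at 27418, 27604 and 34913 in migratory libraries. MARS, the methionyl-tRNA synthetase, was at 4808, 7566 and 5621 and at 9352, 8779 and 12105. Unsorted replicate 2 was the highest unsorted library for both, and still below every migratory one, with log2 differences of 0.73 (SE 0.20) and 0.76 (SE 0.22) and a limma adjusted p of 0.13 for each. GARS, the glycyl-tRNA synthetase, was at 11949, 10627 and 11128 in unsorted and at 13542, 16943 and 17839 in migratory libraries. NARS, the asparaginyl-tRNA synthetase, was at 11281, 9865 and 11112 and at 15922, 15867 and 13885. Both were about 1.4 times higher in mean, with ratios of 1.43 and 1.42 and no overlap. SARS, the seryl-tRNA synthetase, was the steadiest of the set, at 12214, 12612 and 12609 in unsorted and at 15909, 15380.5 and 17324 in migratory libraries. LARS, the leucyl-tRNA synthetase, was at 3302, 4665 and 2945 and at 5143, 4965 and 6061. WARS, the tryptophanyl-tRNA synthetase, was at 5262, 7542 and 5454 and at 8321, 8796 and 7771, and like SARS and LARS its groups stood apart, with limma adjusted p of 0.21 to 0.25 for these genes.

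AARS and IARS, for alanine and isoleucine, followed migratory replicate 3. AARS was at 3075, 3819.7 and 3424 in unsorted and at 2390.4, 5577 and 7177 in migratory libraries, so migratory replicate 1 lay below every unsorted library. Its log2 difference of 0.42 (SE 0.35) was 0.09 without migratory replicate 3 and 0.88 without migratory replicate 1. IARS was at 3543, 7601 and 3787 and at 4241, 6585 and 11572, with overlapping groups. Its log2 difference of 0.55 (SE 0.38) was 0.18 without migratory replicate 3, 0.90 without migratory replicate 1, 0.91 without unsorted replicate 2 and 0.35 without unsorted replicate 1. CARS, for cysteine, was at 413 ± 137 and 507 ± 144, and EPRS, which charges tRNA with glutamate and with proline, at 3823 ± 537 and 4155 ± 1201, with overlapping groups.

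Of the synthetases outside that list, FARSB, a subunit of the phenylalanyl enzyme, was at 3293, 2507 and 2533 in unsorted and at 5285, 4019 and 3285 in migratory libraries. The lowest migratory value lay just inside the unsorted range, and the log2 difference was 0.58 (SE 0.23, limma adjusted p of 0.23). Its partner subunit FARSA was level, at 10069 ± 393 and 9849 ± 1365. KARS, for lysine, was at 8007 ± 778 and 10210.4 ± 887, and HARS, for histidine, at 8029.5 ± 722 and 9629.7 ± 1138. RARS, for arginine, was at 11831 ± 648 and 11739.8 ± 1436. DARS, for aspartate, and QARS, for glutamine, had lower means in migratory cells, at 12309 ± 2097 against 10189.9 ± 1420.4 and at 4499.5 ± 883 against 3286 ± 396, with limma adjusted p of 0.47 and 0.31. Members of the multisynthetase complex (EPRS, IARS, LARS, QARS, MARS, KARS, RARS and DARS) had a median of 0.22 over 8 genes, or 0.11 with migratory replicate 3 left out and 0.14 with unsorted replicate 1 left out, and the 11 measured ones outside it a median of 0.46.

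Levels of different synthetases were compared per kilobase of exon. The length was the union of all annotated exons, at 2.435 kb for FARSA, 8.212 kb for YARS and 10.037 kb for CARS. A union can exceed the transcript that is expressed, which lowers the level, so the places below depend on the annotation. In unsorted cells FARSA was highest, at 4135 ± 162 normalised counts per kilobase, followed by RARS at 3458 ± 189, SARS at 3253 ± 59.6 and TARS at 3211 ± 859.7. The last 3 of these did not differ beyond their spread. In migratory cells TARS was highest at 5243 ± 748, ahead of SARS at 4224 ± 262 and FARSA at 4045 ± 561, and the last pair did not differ beyond its spread. CARS was lowest in both groups, at 41.1 ± 13.7 and 50.5 ± 14.4, below LARS at 448 ± 112 and 664 ± 72.5. YARS stood at place 17 of 19 in unsorted and 15 in migratory cells, so the gene with the smallest p was among the lower ones per length. ATF4, at 2189 ± 201 in unsorted cells, had a level per kilobase in the range of the more abundant synthetases, while DDIT3 was at 812 ± 125, TRIB3 at 606 ± 96.5 and ASNS at 194 ± 56.5.

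**Figure D4:**
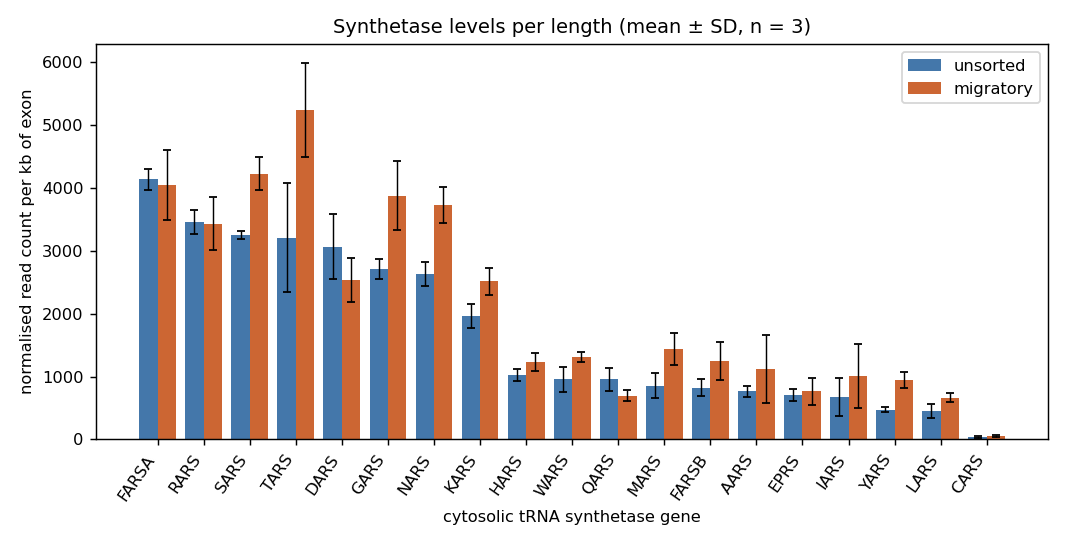
Mean normalised read count per kilobase of exon (vertical axis, from 0) of the 19 measured cytosolic synthetases in unsorted and migratory cells, with error bars of 1 SD over 3 libraries, ordered by the unsorted level. TARS moves from place 4 to place 1, SARS, GARS and NARS are higher in migratory cells, and FARSA, RARS and DARS are not.

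The members were not equally high in all migratory libraries. Migratory replicate 3 held the highest value of 17 of the 38 genes, or 44.7%, where it held that of 14.4% of all tested genes. The mean deviation of the members from the unsorted mean, on the log2 scale, was 0.16, 0.18 and 0.57 in migratory replicates 1 to 3 and -0.11, 0.07 and 0.05 in the unsorted ones. All tested genes had mean deviations of -0.22, -0.13 and -0.14 in the same migratory libraries. The enzymes were at -0.15, 0.39 and 0.86, with PHGDH low in migratory replicate 1, and the stress effectors at 0.00, -1.41 and 0.26, with STC2 at 0 reads in migratory replicate 2. Synthetases often listed as ATF4 targets were at 0.29, 0.58 and 0.71, and the other synthetases at 0.15, 0.05 and -0.02. Without migratory replicate 3 the median over all members was 0.42. The differences of CEBPB, ALDH18A1 and EPRS then became negative, at -0.32, -0.03 and -0.12, and that of RARS turned from -0.02 to 0.04.

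Genes with the response element core in a promoter window were all higher in mean value. The 10 such members had a median log2 difference of 0.64, and 6 of them were higher without overlap, against 11.3% of all tested genes and 17.4% of those whose mean reached 1000. The 21 members with a window but no core had 14 positive values and a median of 0.26, and 9 of them were higher without overlap. The difference between these sets was not tested. They also differ in make-up, since PHGDH, DDIT4, VLDLR and STC2, all lower in limma, fall in the set without the core. In migratory replicates 1 to 3 the mean deviations were 0.32, 0.56 and 1.01 for the genes with the core and 0.06, -0.02 and 0.40 for those without it. Among synthetases with a window, 4 of the 7 with the core and 4 of the 9 without it were higher without overlap. Their medians were 0.51 and 0.26. Members without a window were in neither set: YARS, PSPH, SHMT2 and LARS were higher without overlap, and NUPR1, PYCR1 and DARS overlapped. Of synthetases with a window, 7 of the 10 often listed as ATF4 targets held the core and none of the other 6 did. That list was drawn from general knowledge, which may include known elements, so this split may be partly built in. PSAT1, DDIT3 and TRIB3 showed no core in these windows, which says nothing of elements elsewhere in the genes.

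Genes upstream of ATF4 and the amino acid transporters were read from lists of known pathway genes. Of 16 measured genes for eIF2, its kinases, its phosphatase subunits and the exchange factor eIF2B, 13 had positive differences and 4 were higher without overlap, against 11.3% of all tested genes. Their median was 0.17, or 0.08 without unsorted replicate 1. EIF2AK4, which encodes GCN2, the kinase that senses uncharged tRNA, was at 1369, 2112 and 1401 in unsorted and at 2562, 3023 and 3155 in migratory libraries. The groups did not overlap, with a limma adjusted p of 0.12. EIF2S1, which encodes eIF2 alpha itself, was at 15150.2 ± 1426 and 20382 ± 1808, and EIF2S3, the gamma subunit, at 1665 ± 131 and 2564 ± 402.

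Of 11 amino acid transporter genes, 10 had positive differences and 4 were higher without overlap, again against 11.3% of all tested genes. Their median was 0.57, or 0.97 without unsorted replicate 2. SLC7A11, the cystine importer, was at 528, 543 and 828 in unsorted and at 1252, 1438 and 1289 in migratory libraries. All migratory values lay above the unsorted ones, with a log2 difference of 1.10 (SE 0.25) and a limma adjusted p of 0.092. SLC1A5, a glutamine carrier, was at 5979 ± 1445 and 10178 ± 1663, and SLC38A1, another one, at 6716 ± 2134 and 11734 ± 1202. Their limma adjusted p-values were 0.12 and 0.13.

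Other known targets of ATF4 or CHOP went both ways, with 12 positive and 7 negative differences among 19 genes. BCAT1, the branched-chain aminotransferase, was at 2412 ± 363 and 4195 ± 232. GDF15, a secreted stress cytokine, was at 2619, 843 and 1565 in unsorted and at 115, 279 and 700.0 in migratory libraries. CTH, which makes cysteine from cystathionine, was at 3311 ± 1068 and 1922 ± 149.8. Both had all migratory values below all unsorted values, with limma adjusted p of 0.11 and 0.18, opposite to SLC7A11. This list had 1 gene that was higher and 3 that were lower without overlap, shares near those of all tested genes (11.3% and 12.5%).

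**Figure D5:**
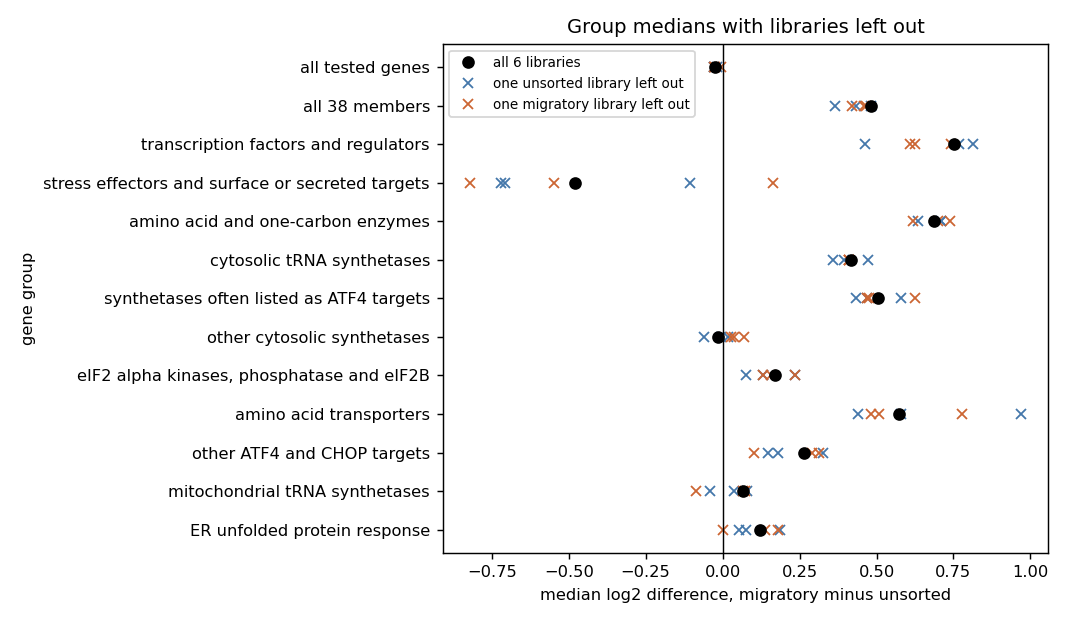
Median log2 difference, migratory minus unsorted (horizontal axis), of each gene group with all 6 libraries (black) and with 1 unsorted or 1 migratory library left out (crosses). The members stay between 0.36 and 0.48, the other cytosolic synthetases stay near 0, the mitochondrial synthetases lie on both sides of 0, and the 4 stress effectors cross 0 when migratory replicate 2 is left out.

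Overlapping and copied genes limit some of these values. The libraries do not mark the strand, and 7 of the 38 genes share at least 10% of their exon length with another gene in GENCODE 29. The shares were 44.6% for ASNS with a transcript on the same strand, 41.2% for DDIT4 with its antisense RNA, 27.2% for MTHFD2 with SLC4A5 and 27.2% for DDIT3 with MARS. For ATF5, PYCR1 and CEBPB they were 21.2%, 15.6% and 11.8%. For 13 of the 38, ATF4, PSAT1, ASNS and MTHFD2 among them, the annotation names at least 1 pseudogene, and the sources used here do not say how shared reads were counted.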

How the data were processed

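RNA of 1000 cells per sample was amplified as full-length cDNA with a low-input kit, tagmented and sequenced paired-end, per the labels' protocols. The deposited signal holds normalised counts, which are reads per gene over a size factor for each library, not scaled for length. The tools named are HISAT2, HTSeq and DESeq2, with builds hg38 and GRCh38.p7, per the submitters' processing notes. The sources used here do not give their versions, their settings or the gene filter. Within each library all values (100%) came out as whole reads to within 0.01 read, so reads were recovered. They sum to 245698448 over the 6 libraries, above the kit's output of up to 130000000 reads per the labels' protocols, so a recovered read may not be a separate fragment, and count tests may understate the error.

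The main test was limma 3.58.1 (R 4.3.3) with an intensity trend on log2(value + 1), over the 15786 genes with a mean of at least 10. The added 1 understates changes of low genes, and a single low library weighs more on a log scale, as for PHGDH. P-values are two-sided, with Benjamini-Hochberg adjustment over all genes and a threshold of 0.05. On recovered reads, edgeR 4.0.16 called 21 genes and DESeq2 1.42.0 called 933. DESeq2 gave 3 adjusted p-values as NA. The fits were tested on simulated data. Simulated 2-fold differences were found in 18% of cases with limma, 15% with edgeR and 42% with DESeq2. For 4-fold differences the shares were 81%, 80% and 91%. False calls were 10 of 109 in limma, 13 of 108 in edgeR and 46 of 179 in DESeq2. A missing call in limma or edgeR is thus weak evidence against a 2-fold difference, and some DESeq2 calls may be false. Between libraries of a group, chi-square over its degrees of freedom was 44.1 to 152, so no library was a copy of another. Floors of 3 reads cover counting error only, since reads carry no molecular identifiers.

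Exon lengths are unions of exons in GENCODE 29 (GRCh38). Values in every sample are given for ATF4, DDIT3, TRIB3, CHAC1, ASNS, PSAT1, every member with an unadjusted p under 0.05 and the smallest p of each role group, and a few more members were named after their values were seen. Of each other list, up to 3 genes with the smallest p are named. Members and lists were chosen with earlier results of these data known. A planned search of protein sequences was not run.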

Additional observations from a re-analysis of the deposited data

How the results depend on the processing

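The number of genes called depended on the method and on single libraries. Against 37 calls among all genes, there were 21 with edgeR, 933 with DESeq2, 95 with a pseudocount of 8, 78 with a filter at a mean of 50, 85 with upper-quartile scaling and 507 with array weights. It was 1 without unsorted replicate 1 or 3, 2 without unsorted replicate 2, 15 and 14 without migratory replicates 2 and 3, and 44 without migratory replicate 1. Against 0 calls among the members there were 8 with DESeq2, 1 with a pseudocount of 8, 1 with the filter at 50 and 5 with array weights, and 0 with any library left out. The cause was not tested. With the replicate number as a block, 114 genes and 3 members were called. The deviations of libraries with the same number correlated at 0.12, 0.11 and 0.04, and those of libraries with different numbers at -0.16 to 0.07. Whether samples with the same number were handled together was not tested. The median over the members stayed at 0.36 to 0.52 and the members higher without overlap at 17 to 21 under the alternatives run. With a library left out this count was 19 to 21, but dropping a library can only keep or raise it. The share of all genes without overlap in those fits was not computed. Of the 300 alternative values of the 20 members named by the rule, none changed direction and 18 crossed the threshold. With 0 members called in the main fit, a crossing could only be toward a call. The rule chose most of these members by their p in the same data, so a steady direction is partly built in. Depth limits STC2, ATF5 and PHGDH, which had the fewest reads.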

Other observations

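Mitochondrial synthetases, which charge tRNAs for the mitochondrial ribosome, had values on both sides of 0. Of 15 measured mitochondrial synthetases 9 had positive differences, with a median of 0.07, which was 0.04 and -0.04 without unsorted replicates 1 and 3 and -0.09 without migratory replicate 3. Without overlap, 2 were higher and 2 lower, shares near those of all tested genes (11.3% and 12.5%). TARS2, the mitochondrial threonyl enzyme, was at 1895, 1902 and 2287 normalised read counts in unsorted and at 909, 1547 and 1309 in migratory libraries, with a limma adjusted p of 0.19. This is the opposite direction to cytosolic TARS. EARS2, for glutamate, was at 638 ± 157 and 1073 ± 180.1 (mean ± SD, n = 3), and YARS2 at 1409.8 ± 283 and 2003 ± 107.

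Of 15 measured genes of the ATF6 and IRE1 arms and their chaperones, 10 had positive differences, with a median of 0.12 that ranged from 0.00 without migratory replicate 3 to 0.19 without unsorted replicate 3. ERN1, which encodes IRE1, was at 394, 495 and 716 in unsorted and at 305, 355 and 247 in migratory libraries, with a limma adjusted p of 0.23. Migratory replicate 3 held the highest value for 9 of the 15. DNAJC3, a co-chaperone that restrains the kinase PERK, was at 2172 ± 359 and 3012 ± 244, and CRELD2 at 1419 ± 203 and 954 ± 219. The scaffold proteins of the multisynthetase complex, EEF1E1, AIMP1 and AIMP2, were each highest in migratory replicate 1 and overlapped between groups.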
